A study of Rattus norvegicus with 12 samples.

Results

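The synaptic vesicle release machinery was followed through 38 genes whose proteins dock, prime, fuse and retrieve the vesicles of the presynaptic terminal. All probe sets carrying 1 annotated symbol from that list were taken, and 37 genes had at least 1 (58 of the 31042 probe sets on the Affymetrix Rat Genome 230 2.0 array); Erc2 had none. A gene with several probe sets was read through its brightest, by mean log2 signal over the 12 arrays. Of these genes, 29 reached the signal needed for testing, a mean of 147.5 or more, which kept 15521 probe sets and 9425 of 14217 named genes of the series. The other 8 (Pclo, Rims1, Unc13a, Rph3a, Syngr1, Syt2, Syt11 and Doc2b) lay below it, with single-array signals of 4.69 to 286, so the tests cover 29 genes and not the whole machinery.

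The cells were primary retinal ganglion cells (RGCs), the projection neurons of the retina, prepared by panning on Thy-1.1 antibody from Sprague-Dawley rat pups at postnatal days 4 to 6. All groups had 7 days of serum-free culture with BDNF, CNTF and forskolin, then a night without neurotrophic factors. Cells next received 100 nM ET-1, 100 nM ET-2 or 100 nM ET-3 for 24 h, or none. The control is named both untreated and vehicle by the labels; the word untreated is kept below. There were 3 arrays in each of the 4 groups, labelled as biological replicates 1 to 3. The labels do not say whether a number stands for a separate culture, so the p-values measure the spread between these arrays. In comparisons within replicate numbers, that spread is what remains after differences between the numbers are removed. The study asked how RGC gene expression responds to each of the endothelins, peptides that act through the endothelin A and B receptors.

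At a chemical synapse, scaffold proteins of the active zone hold vesicles near calcium channels, and priming factors prepare them for fusion. Calcium entry acts on synaptotagmins, and the SNARE proteins syntaxin-1, SNAP-25 and synaptobrevin then zip together and merge the membranes while complexins hold or release the complex. NSF and the SNAP proteins take the spent SNARE complexes apart, and dynamin, amphiphysin, endophilin and synaptojanin retrieve the membrane. RGCs use this machinery at the axon terminals that release glutamate onto their targets in the brain. Purified cells in culture have no such targets.

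Array medians of the deposited MAS5 signal ran from 136 to 181 and trimmed means from 496.7 to 498.3. Deviations from the group means correlated between every one of the 18 pairs of arrays that share a replicate number (r from 0.684 to 0.912 across probe sets), so the groups were compared within replicate numbers. All 13 RGC marker genes with a probe set were among those tested. None of the 5 bipolar cell and 8 photoreceptor markers with a probe set was. Fibroblast markers stood high in replicate 1 of each group: their summed signal over 8 genes ran from 11213 to 61611 with ET-1, 9425.5 to 64913 with ET-2, 9644 to 58925 with ET-3, and 9748.5 to 60690 in untreated cells.

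Most release genes had a log2 change slightly below 0 with endothelin, and at most 2 of the 29 passed the test in any comparison on the values as deposited. With ET-1, 25 of the 29 genes had a log2 change below 0, with a median of -0.08, against 57.6% and -0.03 over all probe sets tested. With ET-2 it was 22 of 29 and a median of -0.13 (56.1% and -0.02 over all), and with ET-3 25 of 29 and -0.13 (57.2% and -0.03). The 3 comparisons share the untreated arrays, and are not independent of each other. Members are read through the brightest probe set of each gene, while the values over all take every probe set tested, dimmer ones included. With each single peptide the median SE was 0.079 for the members and 0.109 over all probe sets. In bulk RNA, fewer cells of a type and less RNA per cell cannot be told apart.

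One gene, Bsn, passed limma's test (adjusted p under 0.05) in each comparison, which makes 1 of 29 against 1.73% of all probe sets with ET-1, 1.6% with ET-2 and 2.64% with ET-3. By direction, those shares were 0.219%, 0.322% and 0.509% for lower calls and 1.51%, 1.28% and 2.13% for higher ones, and no member was called higher. In the mean of the 3 endothelins against untreated, 2 of 29 passed, Bsn and Dnm1, against 4.88% of all probe sets (1.35% lower and 3.54% higher). These counts moved with the scaling: with each array centred on its median, 1, 11 and 2 members passed with ET-1, ET-2 and ET-3 and 7 in the mean, against 1.18%, 7.85%, 2.87% and 9.61% of all probe sets. Without untreated replicate 3, 5 passed in the mean, a count given here without its share over all probe sets. At an unadjusted p under 0.05 the member counts were 6, 11, 6 and 12 in these 4 comparisons, against 15.5%, 16.3%, 17.8% and 21.8% of all probe sets. Without the pairing by replicate number, limma called no member in any of the 4 and none of the 15521 probe sets either. In that fit 1 of 29 members had an unadjusted p under 0.05 in each comparison. The shares over all probe sets were 1.53%, 1.44%, 1.91% and 2.56%.

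**Figure D1:**
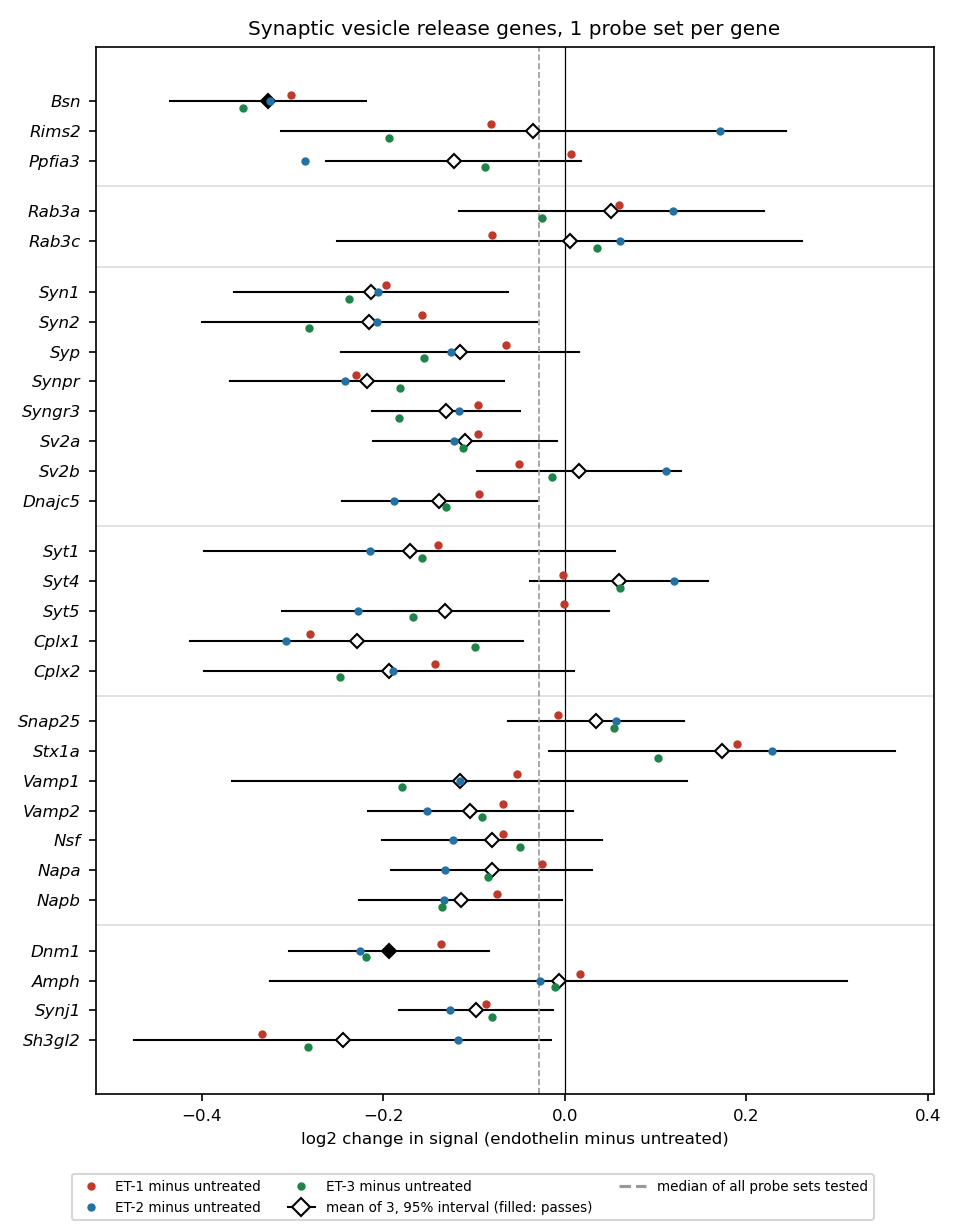
The horizontal axis is the log2 change in signal, endothelin minus untreated, for the 29 tested genes ordered by role; small points are ET-1, ET-2 and ET-3, diamonds their mean with its 95% interval, filled where limma's adjusted p is under 0.05. Bsn (-0.33) and Dnm1 (-0.19) are filled, and most other diamonds lie left of the dashed median of all probe sets tested (-0.03).

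Among the scaffold and priming genes, Bsn fell with all 3 peptides. It encodes bassoon, the giant scaffold protein of the active zone. In replicates 1, 2 and 3 its signal was 2087.5, 2484 and 2518 with ET-1, 1988, 2569.6 and 2434 with ET-2, 2001, 2348 and 2487 with ET-3, and 2743, 3097 and 2875 in untreated cells. All 9 endothelin arrays lay below all 3 untreated arrays, so none of the groups overlapped with the control.

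The group means of Bsn were 11.20 ± 0.15 with ET-1, 11.18 ± 0.20 with ET-2, 11.15 ± 0.16 with ET-3 and 11.50 ± 0.09 in untreated cells (log2, SD, n = 3 each). The log2 changes were -0.30 with ET-1 (limma, paired, adjusted p = 0.0261), -0.32 with ET-2 (adjusted p = 0.0229) and -0.35 with ET-3 (adjusted p = 0.00961). Their mean was -0.33 ± 0.05 (SE; 95% interval -0.43 to -0.22; limma, adjusted p = 0.00269), or 0.797 of the untreated signal. That call was lost without replicate 1 (limma, adjusted p = 0.0521) and without replicate 2 (0.0522), with log2 changes of -0.27 and -0.33. The ET-1 call was lost on leaving out any single array of the comparison other than untreated replicate 3. The ET-2 call went without untreated replicate 1 or 2 or ET-2 replicate 1 or 3, and the ET-3 call without ET-3 replicate 1 or 2.

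Bsn lies on the minus strand of rat chromosome 8 at chr8:117663447-117754412 (RefSeq, GRCr8). Its promoter is shown because Bsn is the member with the firmest change, 250 bases before to 50 after the start at chr8:117754363-117754662, minus strand, with GC boxes (GGGCGG on either strand) in capitals.
Bsn: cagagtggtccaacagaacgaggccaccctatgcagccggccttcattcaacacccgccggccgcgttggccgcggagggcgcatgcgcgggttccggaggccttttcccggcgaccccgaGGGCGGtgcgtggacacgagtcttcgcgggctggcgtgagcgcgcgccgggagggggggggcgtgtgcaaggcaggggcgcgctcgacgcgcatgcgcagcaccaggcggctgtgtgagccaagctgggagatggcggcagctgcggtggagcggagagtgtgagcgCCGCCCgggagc

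The other scaffold and priming genes did not pass. Rims2, a Rab3-binding priming factor, had log2 changes of -0.08 with ET-1, 0.17 with ET-2 and -0.19 with ET-3. Ppfia3 (liprin-alpha-3, an active zone organiser) stood at 0.01, -0.29 and -0.09 in the same order, and the ET-2 value had an adjusted p of 0.104 in the paired limma fit. The probe sets for the scaffold Pclo (piccolo) and the priming factors Rims1 and Unc13a (Munc13-1) were too dim to test, and a second, dimmer probe set of Bsn was as well.

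Neither of the tested Rab3 genes passed. Rab3a, the main small GTPase of synaptic vesicles, read 2715.5, 3769 and 5190.0 in replicates 1 to 3 with ET-1, 2659.6, 4346 and 5198 with ET-2, 2664, 4067 and 4117 with ET-3, and 3046, 3753 and 4106 in untreated cells. The groups overlapped throughout, replicate 1 was the lowest array of each group, and the mean log2 change was 0.05 ± 0.08 (SE; limma, adjusted p = 0.744). A dimmer Rab3a probe set had the opposite sign (-0.11 ± 0.10). Rab3c, a close relative, stood at 0.01 ± 0.12, with an interval of -0.25 to 0.26.

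Of the 8 vesicle membrane and vesicle-bound proteins tested, 7 had a mean log2 change below 0 and none passed; their median was -0.13. Syngr3, synaptogyrin-3, read 4656, 5553 and 6013 with ET-1, 4601, 5580.5 and 5796 with ET-2, 4359.5, 5249 and 5666 with ET-3, and 5087, 6133 and 6074 in untreated cells. Every endothelin array was below the untreated array of its own number, although the groups overlapped. Its mean log2 change was -0.13 ± 0.04 (SE; limma, adjusted p = 0.0655), and with ET-3 alone it was -0.18 (adjusted p = 0.0577).

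Synpr, synaptoporin, a relative of synaptophysin, read 601, 436 and 493 with ET-1, 588, 432 and 496 with ET-2, 624, 416 and 549 with ET-3, and 707, 478 and 616 in untreated cells. It too was lower in 9 of 9 pairs while the groups overlapped, with replicate 2 lowest in each group. The mean log2 change was -0.22 ± 0.07 (SE; limma, adjusted p = 0.0937). Its dimmer probe set was also lower in 9 of 9 pairs (-0.30 ± 0.12).

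Syn1 and Syn2 encode synapsins, which tether vesicles in the reserve pool. They had mean log2 changes of -0.21 ± 0.07 and -0.22 ± 0.09 (SE; limma, adjusted p = 0.102 and 0.166). Sv2a, the vesicle protein bound by the drug levetiracetam, was lower in all 9 pairs with a mean of -0.11 ± 0.05, and Syp (synaptophysin) stood at -0.12 ± 0.06. Sv2b was the one vesicle gene above 0, at 0.02 ± 0.05, while its dimmer probe set stood at -0.17 ± 0.21.

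Dnajc5 encodes cysteine string protein alpha, a chaperone on the vesicle that keeps SNAP-25 folded. Its probe sets disagreed. The brightest stood at -0.14 ± 0.05 (SE; limma, adjusted p = 0.13) and was lower in 9 of 9 pairs. Another was lower in 9 of 9 pairs as well and passed (-0.20 ± 0.05, limma, adjusted p = 0.0367). The dimmest of the 3 tested stood at 0.01 ± 0.10.

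The calcium sensors and complexins gave 4 of 5 mean changes below 0, and none passed. Cplx1, complexin-1, which holds SNARE complexes ready for calcium, read 2944, 3091 and 4093 with ET-1, 3352, 3064 and 3436.5 with ET-2, 3836, 3172 and 4471 with ET-3, and 3817, 4391 and 3988.5 in untreated cells. With ET-2 all 3 arrays lay below the untreated ones; with ET-1 replicate 3, and with ET-3 replicates 1 and 3, lay above the untreated array of the same number. The mean log2 change was -0.23 ± 0.08 (SE; limma, adjusted p = 0.142), against 0.07 ± 0.13 for a dimmer probe set. Cplx2, complexin-2, stood at -0.19 ± 0.09.

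Syt1, synaptotagmin-1, the fast calcium sensor of release, differed far more between replicate numbers than between treatments. It read 90.0, 105 and 999 with ET-1, 91.3, 105 and 847 with ET-2, 88.3, 108.5 and 949 with ET-3, and 107, 126 and 935 in untreated cells. Replicates 1 and 2 were low and replicate 3 high in all 4 groups, and the mean change with endothelin was -0.17 ± 0.10 (log2, SE; limma, adjusted p = 0.365). Syt4, a synaptotagmin of secretory vesicles, stood at 0.06 ± 0.05 on its brightest probe set. Its dimmer one was lower in 9 of 9 pairs (-0.24 ± 0.07, limma, adjusted p = 0.0681). Syt5, another calcium-binding synaptotagmin, stood at -0.13 ± 0.08.

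Doc2b, a calcium sensor of spontaneous release, lay below the filter and was not tested. It read 94.2, 94.0 and 173 with ET-1, 71.1, 104 and 183 with ET-2, 62.4, 78.4 and 31.8 with ET-3, and 69.3, 65.4 and 24.4 in untreated cells. Its ET-1 and ET-2 arrays lay above the untreated ones and its ET-3 arrays overlapped with them, all at signals under the testing limit of 147.5 save replicate 3 with ET-1 and ET-2. Among the probe sets that were tested, 2.25% with ET-1 and 2.13% with ET-2 lay wholly higher. No such share is given for probe sets below the filter, and Doc2b was picked from the dim genes after the values were seen.

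None of the 7 SNARE and SNARE recycling genes passed. Snap25, the plasma membrane SNARE SNAP-25, had a mean log2 change of 0.03 ± 0.04 with an interval of -0.06 to 0.13. Stx1a, syntaxin-1A, its partner, was the highest of the 29 genes: it read 426, 544 and 616 with ET-1, 407, 578 and 657 with ET-2, 346, 529 and 650.0 with ET-3, and 406, 447 and 529 in untreated cells. The endothelin array was higher in 8 of 9 pairs, ET-3 replicate 1 being the exception, and the groups overlapped. Its mean log2 change, 0.17 ± 0.09, did not pass (SE; limma, adjusted p = 0.271). A second Stx1a probe set was too dim to test, and averaging both turned the sign, to -0.12 in the mean and -0.64 with ET-3.

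Napb, beta-SNAP, a neuronal adaptor that brings NSF to spent SNARE complexes, read 2963, 3708 and 3142 with ET-1, 2914, 3277 and 3202 with ET-2, 3039.8, 3129.5 and 3199.7 with ET-3, and 3251, 3829.9 and 3243 in untreated cells. It was lower in 9 of 9 pairs, and the 3 ET-3 arrays lay below the untreated ones. The mean log2 change was -0.11 ± 0.05 (SE; limma, adjusted p = 0.217). Its relative Napa stood at -0.08 ± 0.05 and the ATPase Nsf at -0.08 ± 0.06. The vesicle SNAREs Vamp1 and Vamp2 stood at -0.12 ± 0.12 and -0.10 ± 0.05.

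In the endocytosis group, all 4 tested genes had a mean log2 change below 0. Dnm1 encodes dynamin-1, the neuronal GTPase that pinches retrieved vesicles from the membrane. Its signal was 3538, 3603 and 3964 with ET-1, 3242, 3611 and 3586 with ET-2, 3122, 3399 and 4013 with ET-3, and 3678, 4361 and 4186 in untreated cells. It was lower in 9 of 9 pairs, and the ET-2 arrays alone lay wholly below the untreated ones.

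Dnm1 fell by 12.6% in the mean of the 3 endothelins, a log2 change of -0.19 ± 0.05 (SE; limma, adjusted p = 0.0487). With single peptides it stood at -0.14, -0.23 and -0.22 with ET-1, ET-2 and ET-3 and did not pass. The call was close to the threshold: 17 of 22 alternatives ended it (limma, adjusted p from 0.0222 to 1.0). It was lost on leaving out replicate 1, 2 or 3 whole, or any single array other than untreated replicate 3 and ET-3 replicate 3.

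The Dnm1 promoter (RefSeq, GRCr8, chr3:36046240-36046539, minus strand) is shown as that of the second member that passed, with the core TGACG of the cAMP response element in capitals.
Dnm1: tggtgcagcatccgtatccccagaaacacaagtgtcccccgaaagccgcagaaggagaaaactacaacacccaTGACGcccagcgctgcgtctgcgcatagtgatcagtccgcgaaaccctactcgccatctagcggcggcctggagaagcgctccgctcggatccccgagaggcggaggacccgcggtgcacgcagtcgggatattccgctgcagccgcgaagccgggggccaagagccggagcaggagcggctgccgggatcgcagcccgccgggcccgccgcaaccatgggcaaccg

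Sh3gl2, endophilin-A1, which bends membrane and recruits dynamin and synaptojanin, read 229, 239 and 729 with ET-1, 275, 309 and 733 with ET-2, 212, 276 and 758 with ET-3, and 341, 302 and 774 in untreated cells. Replicate 3 was high in all 4 groups and the groups overlapped. Its mean log2 change of -0.24 ± 0.11 was the second lowest after Bsn and did not pass (SE; limma, adjusted p = 0.201). Synj1, the lipid phosphatase synaptojanin-1, was lower in 9 of 9 pairs at -0.10 ± 0.04, and Amph, amphiphysin, stood at -0.01 ± 0.15.

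**Figure D2:**
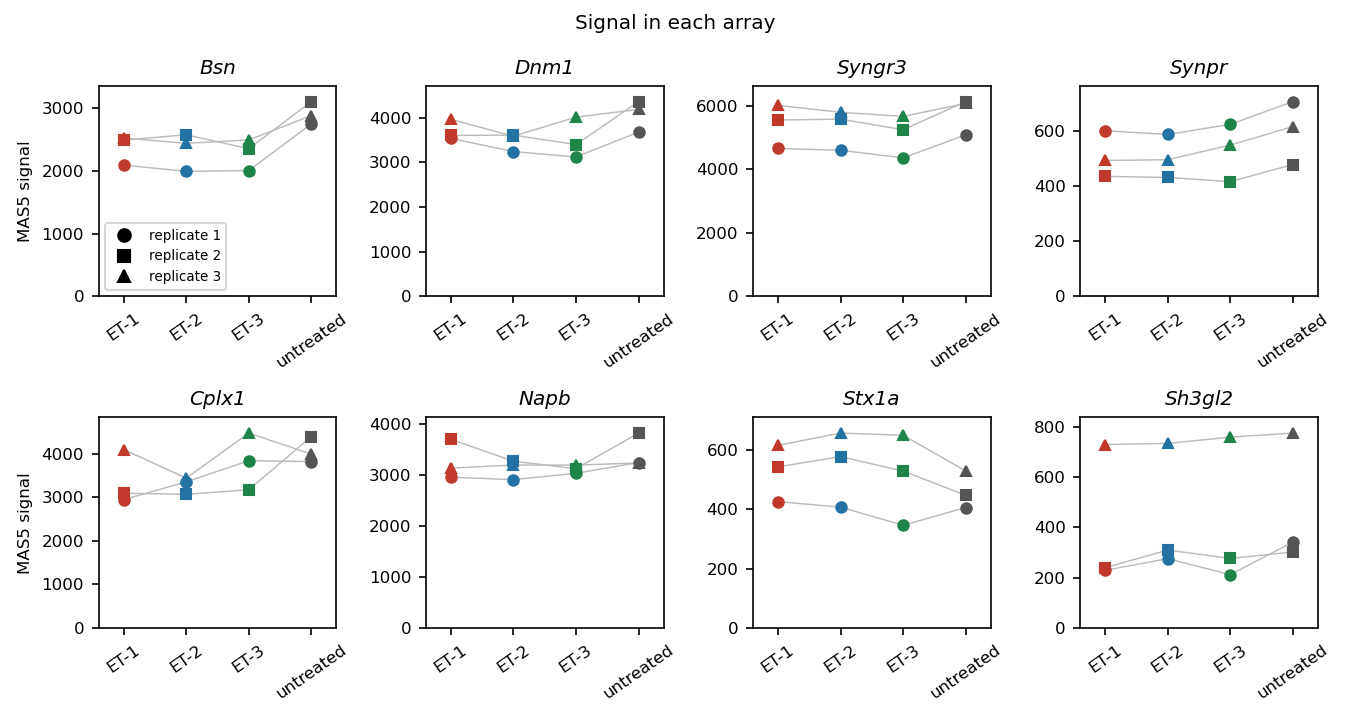
Each panel plots the MAS5 signal of 1 gene (linear axis from 0) in the 12 arrays, by group, with circles, squares and triangles for replicates 1, 2 and 3 and lines joining arrays of one number. The Bsn arrays with endothelin, at most 2569.6, all lie under the lowest untreated array at 2743, whereas the groups of Sh3gl2 spread by replicate number.

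Within replicate numbers, the median of the list was below 0 with all 3 peptides in replicates 1 and 2, and with ET-2 alone in replicate 3. In replicate 1 the median log2 difference of the 29 genes was -0.15 with ET-1, -0.18 with ET-2 and -0.14 with ET-3. In replicate 2 it was -0.14, -0.12 and -0.18. In replicate 3 it was 0.05, -0.07 and 0.0038, with 12, 21 and 14 of the 29 genes lower, against 51.2%, 51.6% and 51.4% of all probe sets. Over all probe sets the same medians were -0.06 with each peptide in replicate 1. They ran from -0.016 to -0.0053 in replicates 2 and 3. The difference between replicate 3 and the others was not tested.

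**Figure D3:**
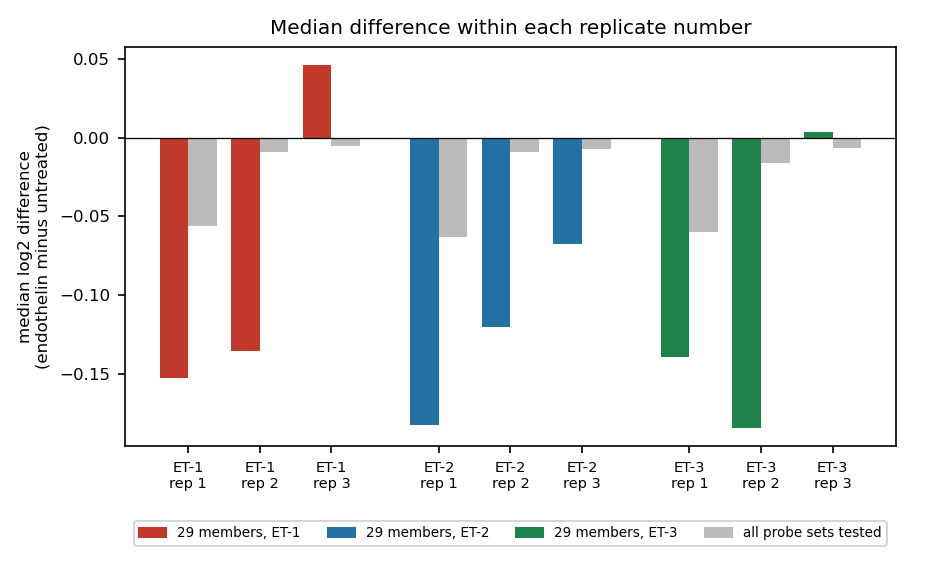
Bars give the median log2 difference, endothelin minus untreated array of the same replicate number, for the 29 release genes (coloured) and for all probe sets tested (grey). The coloured bars reach -0.18 in replicates 1 and 2 and lie between -0.07 and 0.05 in replicate 3.

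Of the 29 genes, 8 were lower in all 9 pairs and none was higher in all 9, against 8.05% and 5.59% of all probe sets. The 8 were Bsn, Synpr, Syngr3, Sv2a, Dnajc5, Napb, Dnm1 and Synj1. The 9 pairs reuse 3 untreated arrays and are not independent. Here too the members are the brightest probe sets of their genes, while the background holds every probe set tested. Counting whole groups that did not overlap, 1 gene lay wholly lower with ET-1 (Bsn; background 2.79%), 4 with ET-2 (Bsn, Cplx1, Napa and Dnm1; background 2.93%) and 3 with ET-3 (Bsn, Syn2 and Napb; background 3.03%). No tested member lay wholly higher (background 2.25%, 2.13% and 2.54%).

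Among the peptides themselves no difference passed for any member or any other probe set (0% called in each of 3 comparisons, limma, paired). The median over the 29 genes was -0.04 for ET-2 against ET-1, -0.04 for ET-3 against ET-1 and -0.0030 for ET-3 against ET-2. Values below 0 were found for 21, 20 and 16 of the 29, against 50.9%, 50.8% and 49.7% of all probe sets. At an unadjusted p under 0.05 there were 4, 0 and 2 members, against 3.7%, 2.24% and 3.76% of all probe sets. The widest gap was in Rims2, at -0.36 for ET-3 against ET-2 (95% interval -0.70 to -0.02; limma, adjusted p = 0.9989). Ppfia3 stood at -0.29 for ET-2 against ET-1 (interval -0.47 to -0.12; limma, adjusted p = 0.9997). For Bsn the ET-2 against ET-1 interval ran from -0.16 to 0.11.

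Most of these genes varied more between replicate numbers than between treatments. On their brightest probe sets, Bsn, Dnm1, Syn2, Cplx1 and Napa went the other way. For Bsn 37.5% of the sum of squares lay between replicate numbers and 56.3% between treatments, and for Dnm1 41.0% and 43.0%. For the median member 81.1% of the sum of squares over the 12 arrays lay between replicate numbers and 7.12% between treatments, against 68.7% and 10.4% for the median probe set. Replicate 3 exceeded the mean of replicates 1 and 2 by a median log2 of 0.37 over the 29 genes, against -0.0042 over all probe sets tested. More than 2-fold higher in replicate 3 were 5 of 29 genes, against a background of 4.29%: Syt1 (3.19), Syt5, Cplx2, Amph and Sh3gl2. The fibroblast markers ran the other way, high in replicate 1 (above), and RGC markers were lowest there. Their part in this pattern was not tested.

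This difference depended on the probe set within a gene. In all 9 members with several tested probe sets, each dimmer probe set had the larger replicate 3 difference, against a background of 70.7% of 2155 such genes. The filter acts on mean signal and can leave out dim probe sets that are not high in replicate 3, so selection partly fixes both figures. The dimmer Cplx1 probe set read 84.1 to 121 in replicates 1 and 2 and 404 to 437 in replicate 3. It passed through its replicate 3 arrays alone. Array medians were higher in replicate 3 (163.5 to 181) than in replicates 1 and 2 (136 to 150.3), and their part was not tested. Nsf stood at -0.31 on its brightest probe set and at 0.88 and 1.82 on the others, Rab3a at 0.48 and 2.34, Cplx1 at 0.22 and 1.99, and Syt4 at 0.37 and 1.90. The median gap between probe sets of a gene was 1.54 for these members and 0.52 for all such genes (log2).

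**Figure D4:**
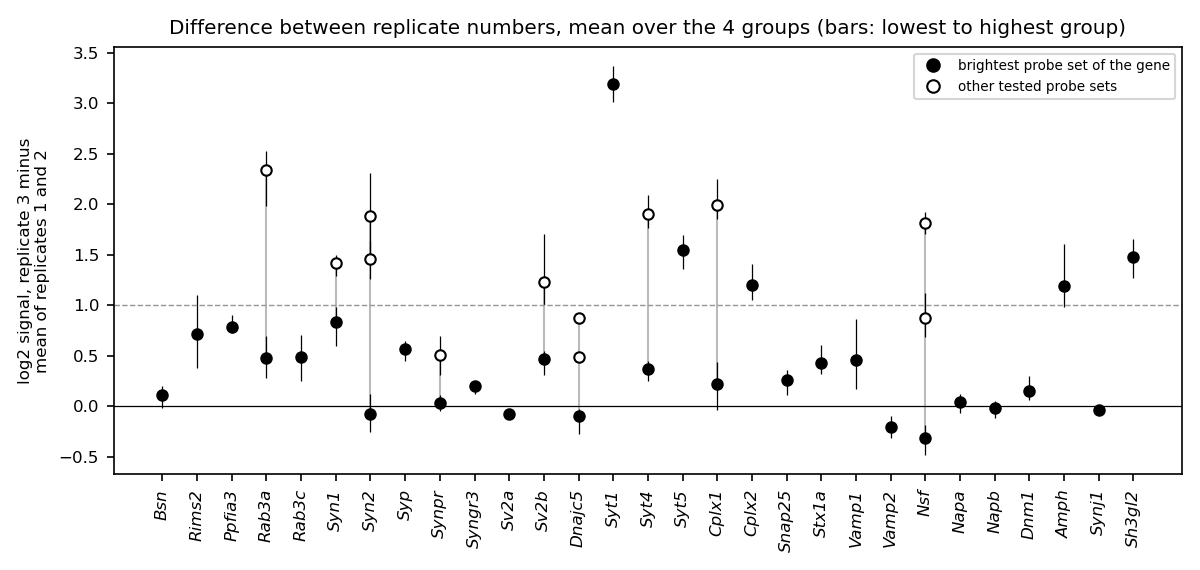
Points give log2 signal of replicate 3 minus the mean of replicates 1 and 2, averaged over the 4 groups, for each tested probe set; filled points are the brightest probe set of a gene, open points its others, and bars span the lowest to the highest group. Open points lie above the filled point of their gene throughout, as for Nsf (1.82 and 0.88 above -0.31), and Syt1 is highest at 3.19. Syt1 and the dimmer probe set of Cplx1 passed the filter only through their replicate 3 arrays.

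Outside the 38 genes, 1 of the release pathway genes that could be tested changed. Of 39 other vesicle fusion genes listed, 21 were tested and 0 passed in any comparison. Those tested included SNAP, VAMP, liprin and Rab3 relatives. Syt3 was the only synaptotagmin among them and Unc13c the only Munc13 gene, and no syntaxin was tested. The median log2 changes of the tested genes were -0.08 with ET-1, -0.10 with ET-2 and -0.08 with ET-3. None passed among 14 tested vesicle proteins and transporters, 10 presynaptic calcium channel and adhesion genes and 10 dense-core vesicle genes. Of 19 tested endocytosis genes, Cltb, the clathrin light chain B, fell.

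Cltb read 2170.0, 2351 and 3418 with ET-1, 1992, 2279 and 3151 with ET-2, 2003, 2373 and 3628 with ET-3, and 2582, 2935 and 3846 in untreated cells. Each endothelin array lay below the untreated array of its number, and the groups overlapped. The log2 change was -0.34 with ET-2 (limma, paired, adjusted p = 0.017), -0.25 with ET-3 (0.0452) and -0.28 ± 0.05 in the mean (SE; 0.00628), while the ET-1 value of -0.25 did not pass (0.0597).

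Some markers of other cell types moved with treatment beside these results. The summed signal of 9 pericyte and smooth muscle genes (Acta2, Tagln and others) ran from 8399.9 to 12005 with ET-1, 8220.1 to 9816 with ET-2, 9639 to 11459 with ET-3, and 4525 to 7216 in untreated cells, without overlap. Tagln carried most of that sum, for example 8216.7 of 12005 in ET-1 replicate 2. Of the 6 pericyte and smooth muscle genes tested, 4, 3 and 5 rose with ET-1, ET-2 and ET-3. Cspg4, Rgs5 and Des were too dim to test. For 9 astrocyte and Müller glia genes the ranges were 23371 to 30743, 20627 to 32036 and 23783 to 31716, against 16301 to 22578 in untreated cells. Vim, Gja1 and Clu, which carry most of that sum, rose in the mean, while Slc1a3 and Glul did not pass there. Gfap, Aqp4, Rlbp1 and S100b were too dim to test. Gja1 was highest in replicate 1 of each group, as the fibroblast markers were. Of 8 tested fibroblast genes, Fn1 rose (0.30) and Ogn (-0.88) and Col3a1 (-0.27) fell in the mean (log2; limma, adjusted p = 0.0149, 0.000868 and 0.0144). Kdr, the 1 tested endothelial gene, fell with ET-2 (-0.74, limma, adjusted p = 0.0481) and in the mean (-0.58, 0.0304). None passed among 7 microglia and macrophage genes and 1 oligodendrocyte lineage gene.

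The 13 RGC markers summed to between 94330 and 136270 with ET-1, 98014 and 138780 with ET-2, 93802 and 146730 with ET-3, and 93553 and 134270 in untreated cells, so these ranges overlapped almost fully. One of them, the transcription factor Eomes, fell with ET-1 (log2 change -0.39, limma, paired, adjusted p = 0.0419) and in the mean (-0.32, 0.0224). Of 6 tested amacrine cell markers, 0 passed and 4 had a mean log2 change below 0. Whether these changes in marker signal bear on the release genes was not tested.

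**Figure D5:**
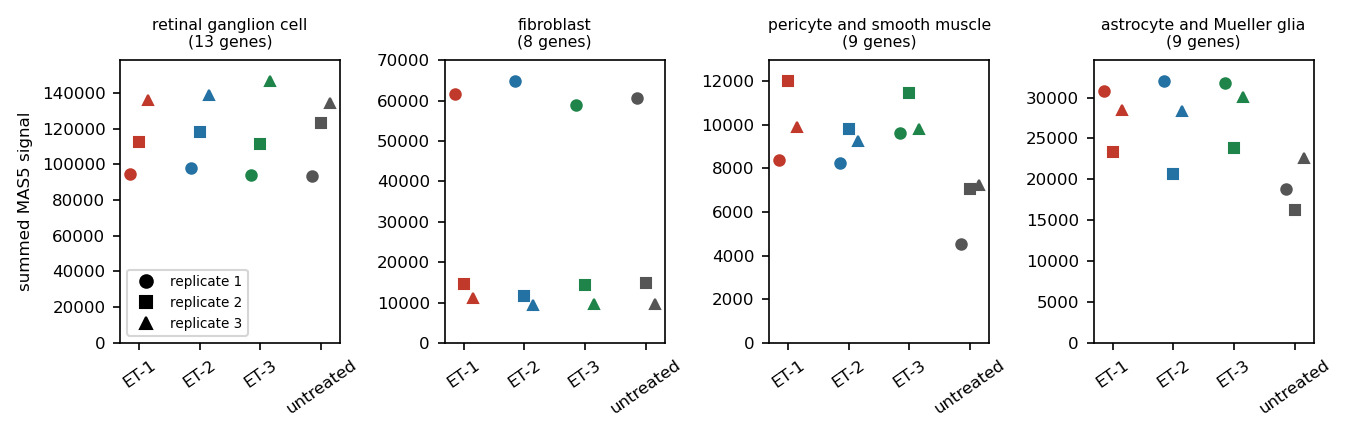
Each panel sums the MAS5 signal (linear axis from 0) of 1 marker list in each of the 12 arrays, by group and replicate number. Pericyte and smooth muscle markers lie above the untreated range in every endothelin array, RGC markers overlap between groups, and fibroblast markers are high in replicate 1 of all groups.

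RefSeq promoters (GRCr8, 250 bases before to 50 after each start) matched 31 of the 37 genes. The full cAMP response element TGACGTCA, the palindrome bound by CREB, was in 4 of 31 (Syn1, Vamp1, Napa and Sh3gl2; 12.9%), against 1.83% of 33469 promoters. Its core TGACG, which the full element contains, was in 38.7% against 21.2%, and the GC box GGGCGG in 71.0% against 33.1%, both strands searched. The left and right parts of the neuron-restrictive element RE1, TTCAGCACC and GGACAG, were in 3.23% (Unc13a) and 25.8%, against 0.356% and 21.7%. Member promoters had a median GC content of 64.7%, against 51.7% for all, and these shares were not adjusted for it. Of the 2 members that passed, neither promoter held the full element.

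The Syn1 promoter (chrX:3725495-3725794, plus strand) is shown as a member with the full element, which is in capitals with a GC box.
Syn1: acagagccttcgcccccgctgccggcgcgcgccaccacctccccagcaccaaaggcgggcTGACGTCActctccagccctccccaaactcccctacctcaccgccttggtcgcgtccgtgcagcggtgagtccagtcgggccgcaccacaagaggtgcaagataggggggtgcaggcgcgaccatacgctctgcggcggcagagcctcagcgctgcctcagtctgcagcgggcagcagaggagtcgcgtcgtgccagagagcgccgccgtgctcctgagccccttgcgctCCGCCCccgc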

How the data were processed

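The deposited values are intensities, 1 for each array and probe set, from MAS5 per the submitters' processing notes; no source used here gives its version or settings. The intensities are linear, and their trimmed means (2% cut at each end) lay between 496.7 and 498.3. Names came from the platform annotation (probe sets: 20826 with 1 symbol, 436 with several, 9780 with none); all 58 member probe sets matched RefSeq by Entrez ID and 0 symbols changed.

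Log2 intensities were fitted with limma 3.58.1 in R 4.3.3: group means plus the replicate number as a block over all 12 arrays, eBayes with an intensity trend, and Benjamini-Hochberg adjustment over the 15521 probe sets at or above the median mean signal (residual SD 0.127 with the block and 0.25 without). Replicate numbers were used as pairs because all 18 same-number correlations exceeded 0.1 (0.684 to 0.912, against -0.706 to -0.056 between other arrays of different groups). Deviations from a group mean cancel within the group, so the negative values follow in part from the positive ones and are not separate evidence. The pairing comes from the values, not the labels. The code was tested on simulated data.

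Members given per array were those that passed and, per role, those with the smallest p or the largest mean change; members of one direction in all 9 pairs, or whose probe sets differ, were named with values. Syt1, Doc2b and the per-array values of Cltb were chosen after the values were seen. The members and gene lists were chosen with earlier results of these data known. Alternatives changed the block, scaling, filter, pseudocount, probe set rule and arrays. Promoters came from RefSeq (GRCr8). The number of arrays limits the precision.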

Additional observations from a re-analysis of the deposited data

How the results depend on the processing

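The median log2 change over the members stayed below 0 under every alternative tried against untreated: -0.14 to -0.04 with ET-1, -0.22 to -0.11 with ET-2, -0.19 to -0.08 with ET-3 and -0.17 to -0.09 in the mean. Calls were less steady. Without the replicate block, which pairs the arrays, 0 members passed in each comparison with untreated. Averaging all probe sets of a gene also gave 0 in each, as did fitting only the groups compared for each single peptide. With no filter on low signal, 0 passed with ET-1 and 1 in the mean. Centring each array on its median gave 11 members with ET-2 (median -0.22), 2 with ET-3 and 7 in the mean, against 7.85%, 2.87% and 9.61% of all probe sets; it also moved the median of all probe sets to -0.12, -0.08 and -0.08 and cut the share of all calls that were higher to 15.8%, 51.1% and 28.6%, against 79.9%, 80.7% and 72.4% as deposited. Centring shifts every probe set of an array alike, so it cannot change the member median relative to all probe sets (-0.10 with ET-2). Quantile normalization gave 2 with ET-3 and 1 in the mean, against 2.22% and 4.04% of all probe sets. A filter at the 75th percentile gave 2 with ET-3. Leaving out replicates or single arrays gave 0 to 1 members with ET-1 and ET-2. It gave 0 to 3 with ET-3 and 0 to 5 in the mean. In the mean, the most passed without untreated replicate 3 and none without replicate 1 or 2. The filter and leave-out counts are given without shares over all probe sets and show only how steady the calls were. The ET-2 against ET-1 median was -0.11 after median centring and between -0.056 and 0.0076 on leaving out replicates or arrays, the highest without replicate 3.

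Log2 changes of Rab3a, Sh3gl2, Cplx1 and Stx1a, none of which had passed, changed sign in 18 combinations of comparison and alternative. Averaging probe sets gave -0.037 (ET-1) and -0.030 (mean) for Rab3a, 0.018 for Cplx1 with ET-3, and -0.64 (ET-3) and -0.12 (mean) for Stx1a. Median centring gave -0.0055 for Rab3a in the mean. On leaving out replicates or single arrays, Rab3a ran from -0.080 to 0.18 with ET-1, from -0.11 to 0.093 with ET-3 and from -0.037 to 0.17 in the mean, Cplx1 from -0.23 to 0.086 with ET-3, and Sh3gl2 from -0.21 to 0.022 with ET-2. The causes were not tested. Intensities near background limit the 8 dim members, and 3 arrays per group limit all of them.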
